A study of Mus musculus with 11 samples.

Results

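Lipoprotein lipase and the proteins that fold, carry, activate or inhibit it were followed as 9 named genes in mouse liver: *Lpl*, *Lipc*, *Lmf1*, *Gpihbp1*, *Apoc2*, *Apoa5*, *Apoc3*, *Angptl4* and *Angptl8*. They were named for their known role in lipolysis, at a time when earlier results of these data, *Lpl* among them, were known. The count table held rows for 8 of the 9 among its 13669 genes, all 8 passed the filter on low counts (over 10 reads in 5 or more livers), and 13334 genes were tested in all. *Apoc2*, which encodes the obligate cofactor apolipoprotein C-II, had no row in the table used here and was not analysed. Its annotated span on GRCm38 (chr7:19671579-19677941, minus strand) overlaps that of *Gm44805* on the same strand, and 647 bases of their transcripts are identical. *Gm44805* had no row either.

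Liver RNA of 11 male wild-type C57BL/6J mice was sequenced, each library from the liver of one animal. All of the mice had received a recombinant adeno-associated virus of serotype 8 in which the liver-specific LP1 promoter drives the insert, so the controls also carried virus. In 6 mice the insert was a tough decoy (AAV-TuD), an RNA that captures *miR-379* as well as *miR-541*. The other 5 mice received a negative control sequence (AAV-NC). The study asked what loss of these hepatic miRNAs changes in liver gene expression. For the decoy studies as a whole, the methods give a virus injection into the tail vein, a fast of some hours before killing and a span of weeks to months after the virus. Regular chow was the standard diet, while separate decoy studies used a high-fat, high-sucrose diet or diabetic mice. The methods do not give the diet or the time after virus of each of these animals. Mice were bought young, at an age of some weeks, and acclimated for further weeks before the experiments unless stated otherwise, and the age at killing is not given per animal. Reads came from the 3′ ends of polyadenylated transcripts, with between 8148531 and 12043959 counted reads per liver. The level of a gene is given in CPM (reads of the gene per 1000000 reads of that liver, with the totals scaled by the TMM method), which in such libraries is close to a count of transcripts and is not divided by length. Hepatocyte markers dominated every liver, with summed levels of 36953 to 51196 CPM over the 10 of 12 markers with a row.

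Lipoprotein lipase hydrolyses the triglycerides of chylomicrons and very-low-density lipoproteins at the surface of blood vessels, mainly in fat, muscle and heart. The adult liver normally holds little of it and instead makes hepatic lipase and most of the circulating proteins that switch the enzyme on or off. The enzyme is folded in the endoplasmic reticulum with the help of lipase maturation factor 1, held on capillary endothelium by GPIHBP1, activated by apolipoproteins C-II and A-V, and restrained by apolipoprotein C-III and by the angiopoietin-like proteins 4 and 8.

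The mature sequences of both miRNAs that the decoy binds are shown first, since the search for their sites in the member genes starts from them. They are RefSeq sequences on GRCm38.p6, written 5′ to 3′ with the seed (bases 2 to 8) in capitals.
miR-379-5p: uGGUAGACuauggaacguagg
miR-541-5p: aAGGGAUUcugauguuggucacacu
They lie on the plus strand of chromosome 12 at chr12:109709065-109709085 and chr12:109742422-109742446. The miRNAs themselves were not analysed here.

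The search covered the longest annotated 3′ untranslated region (UTR) of each of the 9 genes, on the sense strand, for GTCTACC (*miR-379-5p*) and AATCCCT (*miR-541-5p*). Only *Apoa5* held a match, to the *miR-541-5p* seed at base 1089 of its 1185-base 3′ UTR. It lies at chr9:46271809-46271831 on the plus strand and is shown because it is the single match in the set, with the matching bases in capitals.
Apoa5: catgctctccctgaAATCCCTga
The match had no A opposite base 1 of the miRNA. Over the 10922 tested genes with an annotated 3′ UTR, 5.19% held a *miR-379-5p* match, 8.95% a *miR-541-5p* match and 13.3% either. No coding sequence of the 9 genes held either match, against 7.78% and 7.43% of genes. Other seeds were not searched in coding sequence. The study predicted *miR-541*, among other miRNAs, to bind the *Lpl* coding sequence, where this search for exact matches found none. With a median 3′ UTR of 1214 bases over those genes, the regions of *Lipc* (139 bases), *Apoc2* (182), *Angptl8* (260), *Apoc3* (290) and *Lmf1* (362) gave little sequence to search.

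*Lpl* has the longest 3′ UTR of the set, 2428 bases, and was also searched for the other seeds of the cluster from *miR-379* to *miR-410*, whose miRNAs are cut from a shared host transcript. This cluster has 71 mature miRNAs with 64 distinct seeds in the reference table, and the *Lpl* 3′ UTR matched 8 of the seeds. The 1746 genes with a 3′ UTR of similar length (at least 0.8 times that of *Lpl*, and *Lpl* at least 0.8 times theirs) matched a median of 9 seeds (quartiles 7 and 11), so that *Lpl* was within the usual range for its length. The 3 matches with an A opposite base 1 are shown with the matching bases in capitals, and lie on the plus strand at chr8:68905914-68905936, chr8:68906470-68906492 and chr8:68906866-68906888 in this order.
Lpl, miR-376b-5p and miR-376c-5p: atttgaaatgcccaATATCCAat
Lpl, miR-543-3p: ttccagatatgctgGAATGTTag
Lpl, miR-377-3p: gaagaaaactcaccTGTGTGAag
Of the other members, *Gpihbp1* matched 4 seeds of the cluster, *Angptl4* and *Apoa5* 3 each, *Lmf1* 2 and *Angptl8* 1, and *Apoc3*, *Lipc* and *Apoc2* none. A match is a description of the sequence and no measure of binding.

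Of the 8 members measured, only *Lpl* passed an adjusted p of 0.05 (edgeR's quasi-likelihood test, Benjamini-Hochberg over all genes), and it was higher with AAV-TuD. Over all 13334 genes the share past this threshold was 11.6% (7.24% higher and 4.33% lower), so 1 of 8 is close to the share among all genes. *Lpl* was also the only member whose groups did not overlap, against 7.39% of all genes (4.11% with AAV-TuD higher and 3.28% with AAV-TuD lower). At an unadjusted p under 0.05, *Lpl*, *Apoc3* and *Apoa5* passed, 3 of 8 against 26.3% of all genes. Hepatic lipase, the folding factor, the endothelial anchor and the circulating regulators had differences that did not pass, with intervals of very different width.

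**Figure D1:**
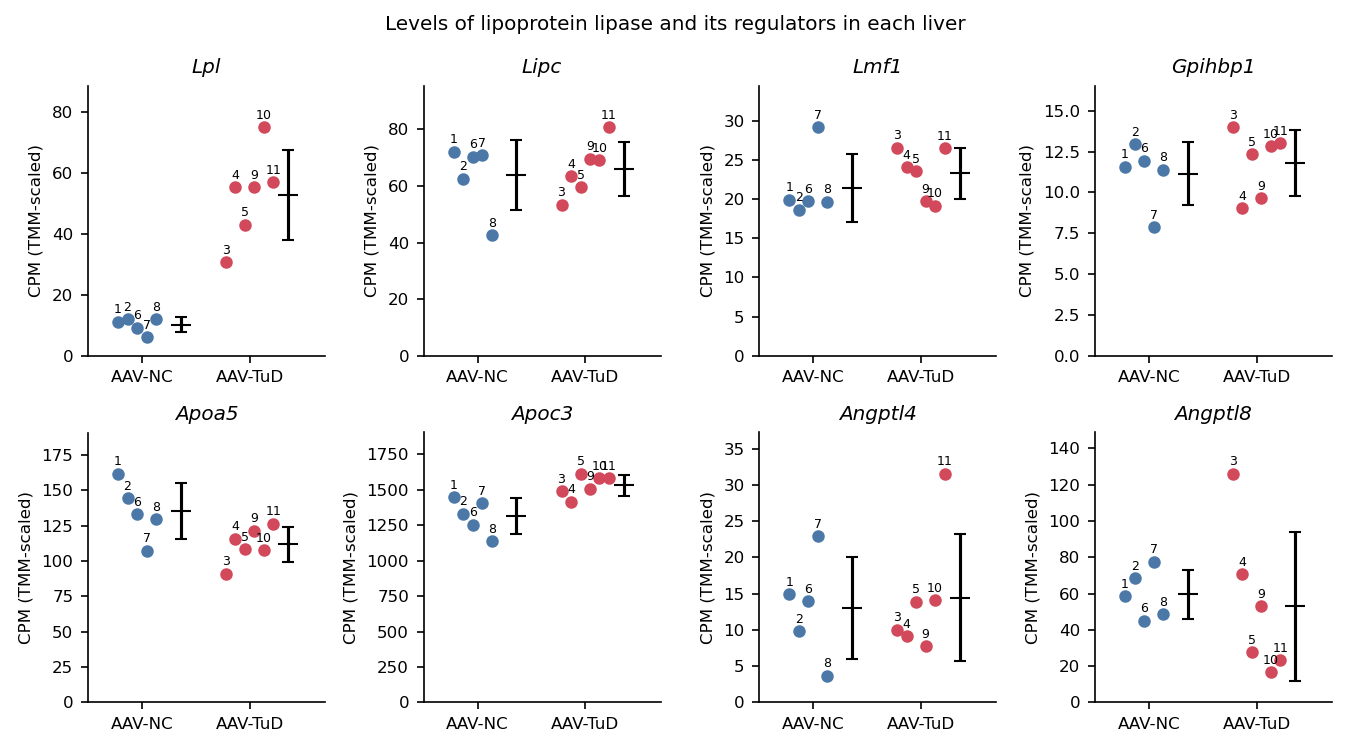
Level of each member in each liver in TMM-scaled CPM on a linear axis from 0, with AAV-NC livers in blue, AAV-TuD livers in red, each point numbered by its liver and the bar giving mean ± SD (n = 5 and n = 6). The 6 AAV-TuD livers lie between 30.8 and 75.1 CPM for *Lpl*, all above the AAV-NC livers, while the groups overlap for the other 7 genes.

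*Lpl* (ENSMUSG00000015568, chr8:68880491-68907448, plus strand) encodes lipoprotein lipase itself. In AAV-NC livers it was at 11.2, 12.1, 9.30, 6.26 and 12.2 CPM in livers 1, 2, 6, 7 and 8. In AAV-TuD livers the lowest value was 30.8 CPM in liver 3, the median 55.4 and the highest 75.1 in liver 10. Every AAV-TuD liver was thus above every AAV-NC liver, and the lowest AAV-TuD liver was still well clear of the highest AAV-NC liver. The means were 10.2 ± 2.49 (SD, n = 5) and 52.8 ± 14.9 CPM (SD, n = 6). The log2 fold change was 2.37 (SE 0.21), a 5.16-fold higher level with a 95% interval from 3.79 to 7.02, at an adjusted p of 1.52e-05 in edgeR's quasi-likelihood test. The two-sided exact permutation test over the 462 splits of the livers gave p = 0.00216, the smallest it can give. The values rest on 50 to 125 reads per AAV-NC liver and 328 to 871 per AAV-TuD liver. Because this is RNA of whole liver, more cells of a type that expresses a gene and more RNA per cell cannot be told apart.

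Livers in which major urinary protein (*Mup*) genes took many reads stood lowest for *Lpl* in their own group. These were AAV-NC 7 (38.6% of reads), AAV-TuD 3 (30.9%) and AAV-TuD 5 (28.4%), with 8.09% to 18.7% in the other livers. Without these 3 livers the log2 fold change of *Lpl* was 2.43. A stretch between bases 2414 and 2581 of the *Lpl* transcript is at least 90% alike to a repeat in many other transcripts, and how reads with several matches were counted is not given in the sources used here.

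Bulk liver holds macrophages, stellate cells and endothelium beside hepatocytes, and *Lpl* is known from several of these cell types, so the markers of each were measured in the same livers. Of the 11 Kupffer cell markers tested, 7 were higher with AAV-TuD (*Clec4f*, *Vsig4*, *Cd5l*, *C1qa*, *C1qb*, *C1qc* and *Csf1r*), with a median log2 fold change of 0.84 over the list. The median over all genes was -0.00. Their summed level was 133 to 202 CPM in AAV-NC livers and 151 to 419 in AAV-TuD livers, which overlap. AAV-TuD 3 had the lowest sum of its group, 151 CPM, inside the AAV-NC range, and also the lowest *Lpl* level of its group, 30.8 CPM. The other AAV-TuD livers had sums of 227 to 419 CPM, all above the AAV-NC range. Livers went both ways. AAV-TuD 10 had the highest sum (419 CPM) and the highest *Lpl* level (75.1 CPM) of its group. AAV-NC 7 had the highest sum of its group, 202 CPM, and the lowest *Lpl* level, 6.26 CPM. AAV-TuD 5 paired a sum of 323 CPM with *Lpl* at 43.1 CPM, and AAV-TuD 11 a sum of 227 CPM with 56.9 CPM. A link between these sums and *Lpl* was not tested.

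Among the lipid-associated macrophage markers, 7 of 10 tested were higher with AAV-TuD, with a list median of 1.83 on the log2 scale. *Spp1* (osteopontin) went from 5.08 to 23.1 CPM and *Cd63*, a lysosomal membrane protein, from 6.67 to 25.3 CPM. *Gpnmb* and *Mmp12* lay between 0 and 0.292 and between 0 and 0.239 CPM in AAV-NC livers, with 0 reads in at least 3 of the 5, and rose to means of 2.16 and 1.64 CPM with AAV-TuD. *Ccr2*, *Lgals3* and *Cx3cr1* were the other 3. *Gpnmb*, *Mmp12* and *Ccr2* had no AAV-NC liver over 10 reads and met the filter on low counts through AAV-TuD livers alone. Markers low in both groups would have dropped out, so the share of 7 of 10 and the list median lean upward. The summed levels overlapped (164 to 307 and 230 to 280 CPM), and 2 abundant genes of the list that did not pass made up most of that sum, *Ctsd* (128 and 138 CPM, log2 difference 0.11) and *Fabp5* (92.7 and 43.5 CPM, log2 difference -1.10). The log2 differences of the 7 higher markers were spread from 1.36 for *Lgals3* to 4.75 for *Gpnmb*, around the 2.37 of *Lpl*. Those of *Spp1* (2.20), *Cx3cr1* (2.11) and *Cd63* (1.92) were among the nearest to it. *Cd9*, which did not pass either, was at 0.71. Values near that of *Lpl* were not limited to this list. The stellate cell markers *Col1a1* and *Col3a1* were at 2.299 and 1.91, in a list with a median of 0.74. *Trem2* and *Itgax* had no row.

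Hepatic stellate cell markers were higher for 8 of 11, with summed levels of 244 to 322 CPM in AAV-NC and 415 to 537 in AAV-TuD livers, which did not overlap. Of 6 cholangiocyte markers with a row, 4 passed the filter on low counts, *Epcam* through AAV-TuD livers alone. These 4 were all higher, *Spp1* counted again among them, with sums of 20.3 to 40.9 and 47.5 to 79.3 CPM. Of the liver sinusoidal endothelial markers 1 of 12 (*Maf*) was higher, with sums of 428 to 486 and 458 to 503 CPM, and of the markers of other vessels 1 of 6 (*Plvap*). Of 10 hepatocyte markers 0 were higher and 2 lower (*Hnf4a* and *Asgr1*), with a list median of -0.16, while their summed level, led by *Alb*, was 36953 to 43198 CPM in AAV-NC and 44755 to 51196 in AAV-TuD livers. Muscle markers had no row (0 of 8). Of 9 adipocyte markers only *Fabp4* and *Car3* had one, which liver cells also express, and the defining *Adipoq*, *Plin1* and *Lep* had none.

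**Figure D2:**
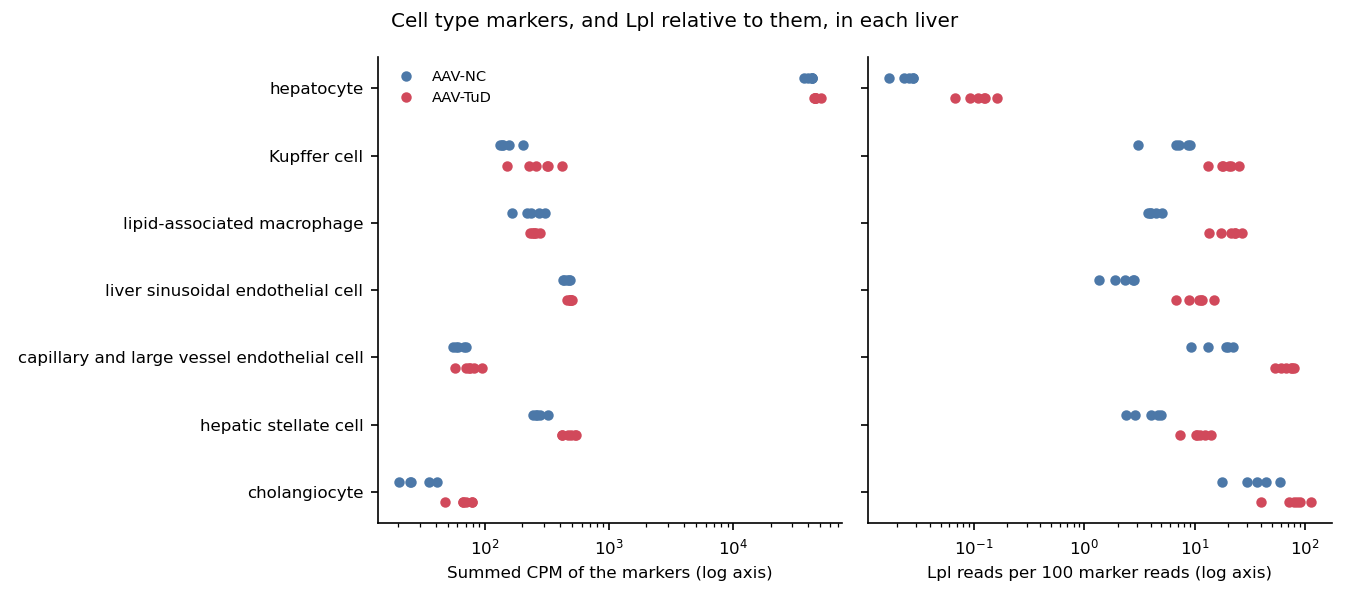
Left, summed TMM-scaled CPM of the markers of 7 liver cell types in each liver (log axis). Right, *Lpl* reads per 100 reads of the same markers in that liver (log axis), where AAV-TuD livers (red, n = 6) lie above AAV-NC livers (blue, n = 5) for each list other than the cholangiocyte markers, whose groups overlap.

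*Lpl* reads were also set against the summed reads of each marker list within a liver. Per 100 reads of Kupffer cell markers there were 3.09 to 9.07 *Lpl* reads in AAV-NC livers and 13.3 to 25.04 in AAV-TuD livers, a 2.88-fold difference. Against the stellate cell markers the ranges were 2.40 to 4.98 and 7.43 to 13.98, a 2.93-fold difference. Against hepatocyte markers they were 0.0169 to 0.0283 and 0.0671 to 0.163, a 4.52-fold difference. For these 3 lists and for the sinusoidal and other vessel lists the groups did not overlap, each at p = 0.00216 in a two-sided exact permutation test. The summed levels differed by 1.07-fold for the sinusoidal, 1.13-fold for the hepatocyte and 1.21-fold for the other vessel markers. Ratios to these sums nearly repeat the *Lpl* difference, and their tests add little to it. Kupffer cell sums differed by 1.77-fold and stellate cell sums by 1.74-fold. For the lipid-associated macrophage list the groups did not overlap either, but its summed reads are mostly *Ctsd* and *Fabp5* and differed by only 1.07-fold, so this ratio nearly repeats the *Lpl* difference and says little about the markers of the list that rose. Against the cholangiocyte markers the groups overlapped (17.6 to 59.8 and 39.5 to 113 *Lpl* reads) at p = 0.0130 in the same exact permutation test. All of these ratios take each list's sum as it stands, and the part of each cell type in the *Lpl* difference was not tested.

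**Figure D3:**
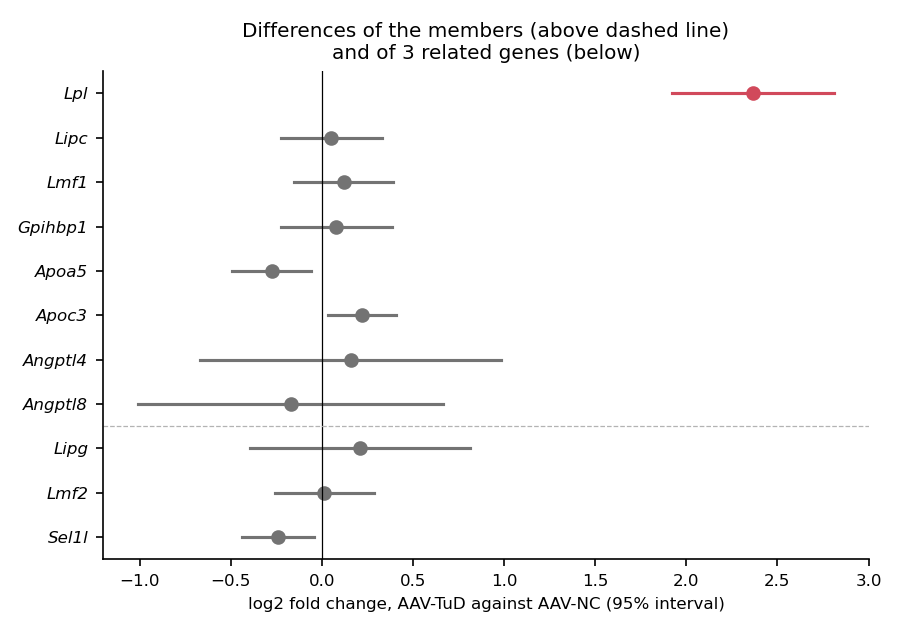
Log2 fold change of AAV-TuD against AAV-NC livers with its 95% interval from edgeR for the 8 members and for 3 related genes below the dashed line. *Lpl* (red) stands at 2.37 and is the only one past the adjusted threshold, and the intervals of *Angptl4* and *Angptl8* are the widest.

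*Lipc* (ENSMUSG00000032207, chr9:70798128-70952226, minus strand) encodes hepatic lipase, which acts on remnant and high-density lipoproteins and is the liver's own member of the lipase family. It stood at 72.1, 62.6, 70.3, 70.9 and 42.6 CPM in AAV-NC livers 1, 2, 6, 7 and 8, and at a lowest of 53.3, a median of 66.2 and a highest of 80.7 CPM in AAV-TuD livers. AAV-NC 8 was the lowest of all livers and AAV-TuD 11 the highest, and the groups overlapped. The log2 difference was 0.05 with a 95% interval from -0.22 to 0.33 (adjusted p = 0.852 by edgeR), a range that leaves out a change of the size seen for *Lpl*.

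The place of *Lpl* among the 2 lipases therefore differed between groups. In reads of the same liver, *Lpl* was at 0.156, 0.193, 0.132, 0.0883 and 0.285 of *Lipc* in AAV-NC livers 1, 2, 6, 7 and 8. In AAV-TuD livers the ratio lay between 0.577 in liver 3 and 1.09 in liver 10. This ratio does not depend on how livers are scaled to one another, and its log2 mean went from -2.65 to -0.36 (difference 2.29, two-sided exact permutation p = 0.00216, adjusted p = 0.0121 over 28 pairs of members).

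*Lmf1* (ENSMUSG00000002279, chr17:25579085-25662826, plus strand) encodes lipase maturation factor 1, without which both lipases are misfolded. Its level was 19.9, 18.6, 19.7, 29.2 and 19.7 CPM in AAV-NC livers 1, 2, 6, 7 and 8 and ran from 19.1 over a median of 23.8 to 26.6 CPM in AAV-TuD livers. Without AAV-NC 7, which was the highest liver of all, the remaining AAV-NC livers lay close together. Between the groups the log2 difference was 0.12 (95% interval -0.15 to 0.39, adjusted p = 0.604 by edgeR), and without AAV-NC 7 it was 0.26 (adjusted p = 0.162 by edgeR).

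*Gpihbp1* (ENSMUSG00000022579, chr15:75596628-75599481, plus strand) encodes the endothelial protein that carries the lipase across the capillary wall and holds it there. It was among the lowest members, at 11.6, 13.0, 12.0, 7.89 and 11.4 CPM in AAV-NC livers 1, 2, 6, 7 and 8 and from 9.02 over 12.6 to 13.99 CPM in AAV-TuD livers. AAV-NC 7 was again apart, here as the lowest liver. For *Gpihbp1* the log2 difference was 0.08 (95% interval -0.23 to 0.38, adjusted p = 0.786 by edgeR), on 63 to 152 reads per liver.

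The balance of the lipase and its anchor differed between the groups. In AAV-NC livers, *Lpl* and *Gpihbp1* reads were nearly equal, with a ratio from 0.778 to 1.07. In AAV-TuD livers the ratio ran from 2.20 in liver 3 to 6.13 in liver 4. The log2 difference was 2.27 (two-sided exact permutation p = 0.00216, adjusted p = 0.0121).

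*Apoa5* (ENSMUSG00000032079, chr9:46268633-46271919, plus strand) encodes apolipoprotein A-V, made mainly in liver, which raises lipolysis by lipoprotein lipase. Its values were 162, 144, 133, 107 and 130 CPM in AAV-NC livers 1, 2, 6, 7 and 8, with a lowest of 91.1, a median of 112 and a highest of 126 CPM in AAV-TuD livers. AAV-NC 7 sat among the AAV-TuD livers, while the other AAV-NC livers were above all of them. The log2 difference was -0.27 (95% interval -0.49 to -0.06) and did not pass the adjusted threshold (adjusted p = 0.0950 by edgeR). Without AAV-NC 7 it was -0.35 at an adjusted p of 0.0344 by edgeR, and with library size alone as the scale it was -0.047 at an adjusted p of 0.898. The antisense gene *Gm47544* overlaps *Apoa5* with 348 identical bases, and whether counting used the strand is not given in the sources used here.

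*Apoc3* (ENSMUSG00000032081, chr9:46232933-46235636, minus strand) encodes apolipoprotein C-III, which slows lipolysis and remnant uptake. It was by far the most abundant member, at 1449, 1331, 1253, 1408 and 1136 CPM in AAV-NC livers 1, 2, 6, 7 and 8 and from 1417 over 1545 to 1614 CPM in AAV-TuD livers. Of the AAV-TuD livers, 5 of 6 were above every AAV-NC liver, and liver 4 fell within the AAV-NC range. The log2 difference was 0.22 (95% interval 0.03 to 0.41) at an adjusted p of 0.117 by edgeR, and DESeq2, which called 13.6% of all genes, gave 0.21 at an adjusted p of 0.0345. With library size alone as the scale the difference was 0.46, and with hepatocyte marker reads it was 0.04.

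*Apoc3* and *Apoa5*, neighbours in the same apolipoprotein gene cluster with opposite actions on the lipase, were also compared within each liver. *Apoc3* reads were 8.96, 9.22, 9.42, 13.1 and 8.77 times *Apoa5* reads in AAV-NC livers 1, 2, 6, 7 and 8. The ratio lay between 12.2 and 16.4 in AAV-TuD livers, with AAV-NC 7 inside that range. The log2 difference of 0.49 had a two-sided exact permutation p of 0.0130 and an adjusted p of 0.0519 over the 28 pairs, just outside the threshold.

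*Angptl4* (ENSMUSG00000002289, chr17:33773750-33781830, minus strand) encodes the fasting-induced inhibitor that unfolds lipoprotein lipase. Its values were 14.9, 9.82, 13.9, 22.9 and 3.70 CPM in AAV-NC livers 1, 2, 6, 7 and 8, and ran from 7.77 over 12.0 to 31.6 CPM in AAV-TuD livers. The lowest and the highest AAV-NC livers differed by 6.19-fold and the AAV-TuD livers by 4.06-fold, so the spread within a group was larger than the difference of the means. That difference was 0.16 on the log2 scale with a 95% interval from -0.67 to 0.98 (adjusted p = 0.848 by edgeR).

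*Angptl8* (ENSMUSG00000047822, chr9:21835510-21837347, plus strand) encodes a feeding-induced inhibitor of lipoprotein lipase. In AAV-NC livers it was at 58.4, 68.4, 45.0, 77.6 and 48.7 CPM in livers 1, 2, 6, 7 and 8, a 1.72-fold range. In AAV-TuD livers it ran from 16.6 CPM in liver 10 over a median of 40.4 to 126 CPM in liver 3, a 7.61-fold range. Of the AAV-TuD livers, 3 of 6 were below every AAV-NC liver and 1 was above. The means were 59.6 ± 13.5 (SD, n = 5) and 52.9 ± 41.2 CPM (SD, n = 6), the log2 difference -0.17 with a 95% interval from -1.01 to 0.67 (adjusted p = 0.835 by edgeR). The difference in spread was not tested. *Angptl8* lies within the span of *Dock6* on the opposite strand.

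The ratio between the 2 angiopoietin-like members varied widely between livers, and most among AAV-TuD livers. *Angptl4* reads were 0.256, 0.144, 0.310, 0.295 and 0.0760 of *Angptl8* reads in AAV-NC livers 1, 2, 6, 7 and 8. In AAV-TuD livers the ratio lay between 0.0797 in liver 3 and 1.35 in liver 11.

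By mean level in AAV-NC livers the order of the members was *Apoc3*, *Apoa5*, *Lipc*, *Angptl8*, *Lmf1*, *Angptl4*, *Gpihbp1* and *Lpl*, with *Lpl* last. As reads come from transcript ends, these are levels per transcript, though not corrected for how well each end is primed. Within AAV-NC livers, *Lpl*, *Gpihbp1* and *Angptl4* could not be ordered, since each pair's log2 ratio ran from below 0 to above 0 (for *Lpl* to *Gpihbp1* from -0.36 to 0.10). *Lipc* and *Angptl8* could not be ordered either (-0.19 to 0.64). In AAV-TuD livers *Lpl* was above *Gpihbp1*, *Angptl4* and *Lmf1* in each liver, with a lowest log2 ratio of 1.14, 0.85 and 0.21. There it overlapped *Lipc* (-0.79 to 0.12) and *Angptl8* (-2.03 to 2.18).

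Of the 28 ratios between members, 6 differed between groups at an adjusted p under 0.05, and all 6 held *Lpl*. Beside those to *Lipc* and *Gpihbp1*, the log2 difference was 2.62 for *Lpl* to *Apoa5*, 2.23 for *Lpl* to *Lmf1* and 2.13 for *Lpl* to *Apoc3*, each with no overlap (two-sided exact permutation p = 0.00216, adjusted p = 0.0121). For *Lpl* to *Angptl8* it was 2.85 with overlap (two-sided exact permutation p = 0.00649, adjusted p = 0.0303). For *Lpl* to *Angptl4* it was 2.16, which missed the threshold (two-sided exact permutation p = 0.0152, adjusted p = 0.0530). So the difference of *Lpl* was larger than that of 6 of the other 7 members by a test of the difference itself. All 6 ratios share *Lpl*, those to *Lipc* and *Gpihbp1* included. They largely repeat the *Lpl* difference and are not separate results.

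Within groups, members showed no relation past adjustment. After subtraction of the group means, *Lipc* and *Angptl4* had Pearson's r = 0.82 and Spearman's rho = 0.81 over 11 livers (permutation p = 0.0103 and 0.00813, adjusted p = 0.123 and 0.146 over 28 pairs). Without the 2 livers farthest from the median of *Lipc*, r was 0.68. *Lpl* and *Lmf1* had r = -0.78 and rho = -0.75 (permutation p = 0.0112 and 0.0117, adjusted p = 0.123 and 0.146), and r was -0.48 without AAV-TuD 3 and AAV-NC 7. The genes most like *Lpl* in this measure, among 8326 genes that averaged 50 reads or more, were *Lgals1* (r = 0.95), *Rpl19-ps11* (0.94), *Myo9a* (0.94), *Ank3* (0.93) and *Sod3* (0.93). *Rpl19-ps11* is a pseudogene of a ribosomal protein gene that may share reads with it. These are the highest of many values over the same 11 libraries and carry no test.

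**Figure D4:**
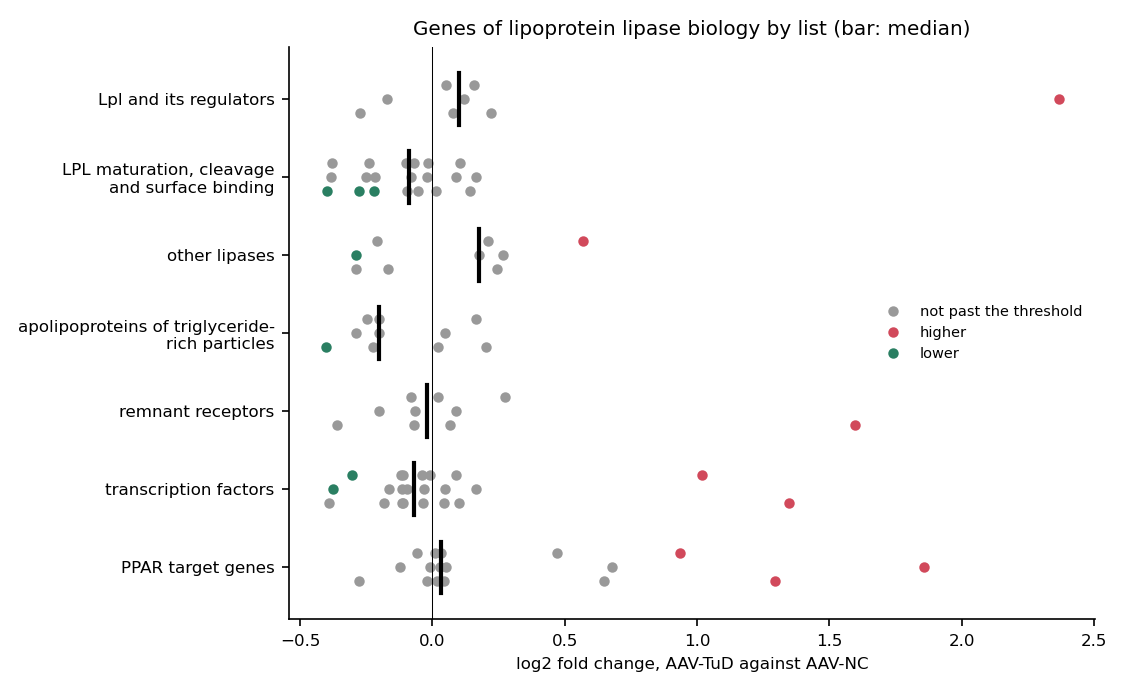
Log2 fold change (AAV-TuD against AAV-NC) of each tested gene of the members and of 6 lists of related genes, with the list median as a bar and genes past the adjusted threshold in red (higher) or green (lower). The list medians lie between -0.20 and 0.18, and *Lpl* at 2.37 is the rightmost gene.

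Around the members, 99 genes of lipase maturation, related lipases, apolipoproteins, remnant uptake and transcriptional control were described by lists, of which 89 were tested. With AAV-TuD 8 were higher and 8 lower, with a median log2 difference of -0.03, against 7.24% higher and 4.33% lower over all genes. The 8 that were lower had log2 differences from -0.40 to -0.22 and depended on the scale, and under library size alone none passed (0.532% of all genes were lower there). With hepatocyte marker reads as the scale 20 were lower, against 17.8% of all genes. The scales differ by a shift. The median log2 difference of all genes was -0.0024 with TMM scaling, 0.23 with library size alone and -0.18 with hepatocyte marker reads as the scale.

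In the list of lipase maturation, cleavage and surface binding, 0 of 20 were higher and 3 were lower, with a median of -0.09. *Canx* (calnexin, a folding chaperone of the endoplasmic reticulum) went from 226 ± 11.5 to 194 ± 9.05 CPM, a log2 difference of -0.22. *Furin*, a proprotein convertase that can cleave lipoprotein lipase, went from 106 ± 8.55 to 87.7 ± 7.66 CPM (log2 difference -0.28). Their groups did not overlap. *Sdc4* (syndecan 4, a heparan sulfate proteoglycan) went from 158 ± 13.7 to 120 ± 22.6 CPM (log2 difference -0.40), and the adjusted p values of the 3 by edgeR were between 0.0305 and 0.0344.

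The other partners of lipase folding did not pass. *Sel1l*, whose protein stabilizes the complex of lipoprotein lipase with LMF1, was at 128 and 108 CPM (log2 difference -0.24, adjusted p = 0.105 by edgeR). *Lmf2*, the homolog of *Lmf1*, was at 7.32 and 7.37 CPM (log2 difference 0.01).

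Of 9 related lipases with a row, 1 was higher and 1 lower. *Lipa*, the lysosomal acid lipase, had a log2 difference of 0.57, and *Aadac*, a microsomal lipid hydrolase, went from 287 ± 22.4 to 235 ± 10.5 CPM (log2 difference -0.29, adjusted p = 0.0126 by edgeR). *Lipg*, endothelial lipase and the nearest relative of *Lpl* and *Lipc*, was at 4.53 and 5.23 CPM (log2 difference 0.21, adjusted p = 0.699 by edgeR). Of the other angiopoietin-like genes, *Angptl2*, a secreted relative, went from 3.19 to 6.13 CPM (log2 difference 0.93, adjusted p = 0.0123 by edgeR).

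Among 10 other apolipoproteins and partners of triglyceride-rich particles, 0 were higher and 1 was lower. This was *Apob*, the structural protein of very-low-density lipoproteins, with 1604 ± 142 CPM in AAV-NC and 1214 ± 130 in AAV-TuD livers (log2 difference -0.40, adjusted p = 0.0146 by edgeR). *Mttp*, the transfer protein that loads it with lipid, was at 113 and 95.7 CPM (log2 difference -0.25, adjusted p = 0.105 by edgeR). *Apoe*, *Apoc1* and *Apoc4* had log2 differences of 0.20, 0.05 and 0.02, none past the threshold. Of 10 remnant receptors and their partners only *Cd36*, a fatty acid and lipoprotein receptor, was higher (log2 difference 1.60). *Lrp1*, *Sdc1* and *Vldlr* were not past the threshold, with differences between -0.08 and 0.09.

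Of 22 transcription factors known to act on member genes, 2 were higher and 2 lower. *Pparg*, which drives *Lpl* in fat cells, had 1.02 ± 0.38 CPM (SD, n = 5) in AAV-NC and 2.59 ± 0.75 CPM (SD, n = 6) in AAV-TuD livers, at 7 to 39 reads per liver (log2 difference 1.35, adjusted p = 0.00883 by edgeR). *Nr0b2*, an orphan nuclear receptor and repressor, went from 7.33 to 14.8 CPM with no overlap (log2 difference 1.02, adjusted p = 0.00546 by edgeR). *Hnf4a*, a hepatocyte factor that acts on *Apoc3*, was lower (154 and 119 CPM, log2 difference -0.38, adjusted p = 0.0150), as was *Mlxipl*, the carbohydrate response factor (112 and 91.0 CPM, log2 difference -0.30, adjusted p = 0.0436), both by edgeR. *Ppara*, the factor of the fasting response, was at 169 and 155 CPM (log2 difference -0.12, adjusted p = 0.586 by edgeR).

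Of 17 tested target genes of the PPAR receptors, 3 were higher and 0 lower, with a list median of 0.03. *Acot2*, a mitochondrial thioesterase, went from 5.96 ± 2.28 to 21.4 ± 9.64 CPM (log2 difference 1.86, adjusted p = 0.00275 by edgeR) and *Vnn1*, pantetheinase, from 3.43 ± 1.498 to 8.44 ± 2.17 CPM (log2 difference 1.30, adjusted p = 0.00629 by edgeR), both without overlap. *Pdk4*, an inhibitor of pyruvate oxidation, was low in all livers, at 0.902 and 1.73 CPM (log2 difference 0.94, adjusted p = 0.0443 by edgeR). *Cpt1a* and *Plin2* had differences of -0.0080 and -0.019, neither past the threshold.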

How the data were processed

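Reads of QuantSeq 3′ mRNA libraries were trimmed with BBDuk, aligned to GRCm38 with STAR 2.5.3a and counted per gene with Rsubread by the authors, who deposited the counts per liver without normalization and used DESeq2 1.38.3 themselves. The annotation, strand setting and treatment of reads with several matches are not given in the sources used here. Groups came from the sample labels. The filter of the study (over 10 reads in 5 or more livers) was kept, and edgeR 4.0.16 (R 4.3.3) ran its quasi-likelihood test with TMM factors and Benjamini-Hochberg adjustment at 0.05. CPM uses TMM-scaled totals, and log2 CPM a prior count of 2. Ratios within a liver are log2 of reads plus 0.5, tested by two-sided exact permutation over 462 splits. Correlations used 100000 resamples. The test was checked on simulated counts. Replicates are separate animals, and p values for group differences set the difference against the spread between these livers. Sites were searched in GENCODE M21 transcripts of GRCm38.

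The members and gene lists were chosen with earlier results of these data known. The genes named are the members, the called genes of each list (at most 4 with the smallest p in each direction), *Lipg*, *Lmf2*, *Sel1l*, *Ppara*, *Pparg* and the 5 genes most like *Lpl*. A few genes named by this rule are left out of the report. *Mttp*, *Apoe*, *Apoc1*, *Apoc4*, *Lrp1*, *Sdc1*, *Vldlr*, *Cpt1a* and *Plin2* and the named cell type markers were added after their values were seen. Alternatives were DESeq2 1.42.0, limma-voom (limma 3.58.1), other scalings and filters, removal of the 50 genes with most reads, a log2 fold change of at least 1, a pseudocount of 5 for ratios, and each liver left out. Leaving out the 3 livers with over 20% of reads on *Mup* genes, and *Lpl* reads over marker reads, were chosen after seeing the data.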

Additional observations from a re-analysis of the deposited data

Results flagged for a closer look

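A liver stood far from the others of its group in 5 of the 32 groups of values examined (15.6%), where chance gives about 1 in 20 groups, or 1.6. Each value is the gap to the nearest liver over the whole range of the group. For *Lipc*, AAV-NC 8 was lowest (0.730). For *Gpihbp1*, AAV-NC 7 was lowest (0.738), and for *Lmf1* the same liver was highest (0.849). Of the summed cell type markers, AAV-TuD 5 was lowest for cholangiocytes (0.651) and AAV-TuD 9 highest for hepatocytes (0.739). *Lpl*, *Angptl4*, *Angptl8*, *Apoc3* and *Apoa5* had no such liver in either group.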

How the results depend on the processing

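*Lpl* kept its direction and passed in 21 of 21 alternatives, with log2 fold changes of 2.24 to 2.48 with each liver left out and 2.20 to 2.61 otherwise. The number of members past the threshold was 1 to 2 with each liver left out (2 without AAV-NC 7, where *Apoa5* was at -0.35, the lowest of its range that ends at -0.20). It was 2 with DESeq2 (*Apoc3* at 0.21) and 2 with hepatocyte marker reads as the scale (*Apoa5* at -0.44). The hepatocyte scale also turned *Lipc* (-0.13), *Angptl4* (-0.034), *Gpihbp1* (-0.086) and *Lmf1* (-0.063). With single livers left out, *Lipc* reached -0.064 without AAV-NC 8 and -0.014 without AAV-TuD 11 (highest 0.11), *Angptl4* -0.091 and -0.24 without the same livers (highest 0.46), *Gpihbp1* -0.020 without AAV-NC 7 (highest 0.14) and *Angptl8* 0.015 without AAV-TuD 10 (lowest -0.64). *Angptl8* was at 0.038 with library size alone, and *Gpihbp1* at -0.11 without the 3 livers with most *Mup* reads. *Lipc*, *Angptl4*, *Angptl8*, *Gpihbp1* and *Lmf1* passed the threshold in 0 of these 21 alternatives, and the cause of the shifts was not tested.

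Of the list genes, 5 were higher and 0 lower when a log2 fold change of 1 or more was also required, in place of 8 and 8. Lower list genes numbered 0 with library size alone, 20 with hepatocyte marker reads and 5 without the 3 *Mup* livers, and 4 to 8 with each liver left out (4 without AAV-NC 1, 2 or 7 or AAV-TuD 4 or 9, and 5 without AAV-TuD 11). Higher list genes numbered 7 to 10 with each liver left out. Calls over all genes were 62.6% higher with TMM, 95.1% with library size alone and 21.5% with hepatocyte marker reads. Ratios past the threshold numbered 5 to 8 with each liver left out and 6 with a pseudocount of 5. With an A opposite base 1 also required, 0 members held a site of either miRNA, where 3.22% of genes did. No paired analysis was possible because no replicate number occurs in both groups. Among the members, depth limits *Lpl*, *Gpihbp1* and *Angptl4*, with as few as 50, 63 and 38 reads in a liver.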
